A study of Mus musculus with 140 samples.

Results

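The loss of Sox2 was followed day by day in CCE cells, a mouse embryonic stem (ES) cell line that the labels give as male and of strain 129/Sv. Cells transduced with a Sox2 shRNA vector (Sox2_shRNAi) were set against cells transduced with the empty H1P vector, sampled on the same days. The members were chosen by title: all samples of the Sox2 shRNA course and, as their reference, all samples of the empty vector course, on days 0 to 7. This gave 8 Sox2 shRNA samples and 8 empty vector samples of 70 RNA samples in all, each hybridised to a MOE430A and a MOE430B array (32 of 140 arrays). Cells of both courses were grown with LIF, carried a GFP vector and were sorted for GFP before RNA was taken. Day 0 was the first sort, when transduced cells were also replated, and later sorts were 1 day apart. Days were thus counted from the first sort and not from transduction, which came before it. A difference on day 0 had formed by then, and how soon after transduction it formed was not measured. For comparison, the series holds an Oct4 shRNA course with 8 samples and courses with shRNAs against Nanog, Esrrb, Tbx3, Tcl1 and Mm343880, each also with 1 sample a day. Cells treated with retinoic acid (7 samples) make up the remaining course, which entered the fit for the spread but no comparison.

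Sox2 is an HMG-box transcription factor that binds DNA beside Oct4 (gene Pou5f1) at composite elements, in which a Sox site lies next to an octamer site. Such elements are known at Fgf4, Utf1, Fbxo15, Nanog, Pou5f1 and at Sox2 itself. In mouse ES cells, loss of Sox2 or of Oct4 is known to let cells turn on trophectoderm genes, those of the blastocyst cells that go on to form the placenta.

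Signals are MAS5 intensities on a linear scale, 1 per probe set. Array medians of the Sox2 shRNA samples lay between 260.3 and 314.5 on A arrays and 78.3 and 109.8 on B arrays, against 244.4 to 330.8 and 80.8 to 105.5 for the empty vector. Each course had 1 sample a day, so the number of arrays limits the precision. The tests measured the spread of samples around a smooth curve per course, with a median residual SD of 0.289 on the log2 scale, and not the spread between separate transductions, so this spread may be technical. A late difference is the mean distance of the Sox2 shRNA curve from the empty vector curve over days 4 to 7, an early one over days 0 and 1, and a middle one over days 2 and 3. All are on the log2(signal + pseudocount) scale, on which changes of dim genes come out too small, and a gene passed at an adjusted p under 0.05 (limma). Values after ± are standard errors unless called SD. In sorted cell populations measured as a whole, fewer cells of a type and less RNA per cell cannot be told apart.

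The knockdown was in place at the first sort. Sox2, on chromosome 3, had signals of 1463, 909, 656, 496, 536, 632, 1385 and 1890 on days 0 to 7 in Sox2 shRNA cells, against 5957, 4054, 3914, 3691, 4283, 4340, 5490 and 6094 in empty vector cells. The highest Sox2 shRNA sample, day 7, stayed below the lowest empty vector sample, day 3. The day-matched log2 difference averaged -2.30 (SD 0.441, n = 8 days), and all 8 days were lower (sign-flip permutation test, exact and two-sided, p = 0.00781, the smallest that 8 days allow). This test takes the days as independent, though they are serial samples of a course. Its p-value therefore does not measure the spread between separate transductions. The difference was widest on day 4 (-2.86) and narrowest on day 7 (-1.66), while it was already -1.98 on day 0.

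Slc7a3, a transporter of cationic amino acids, and Trh, which encodes the thyrotropin-releasing hormone precursor, were low in Sox2 shRNA cells from the first sort on. Slc7a3 had signals of 681, 520, 407, 443, 323, 339, 641 and 856 on days 0 to 7 in Sox2 shRNA cells, against 6282, 6397, 6806, 5646, 5923, 5654, 4191 and 4197 in empty vector cells. Trh had 678, 845, 1134, 491, 587, 579, 560 and 1972 in Sox2 shRNA cells, against 4746, 4064, 6587, 7684, 6306, 6639, 6311 and 8875 in empty vector cells. The courses did not overlap for either gene on any day. Slc7a3 was 9.75-fold lower early (-3.28 ± 0.19, adjusted p = 2.4e-16) and 8.63-fold lower late (-3.11 ± 0.14, adjusted p = 3.2e-21). Trh was 5.67-fold lower early (-2.50 ± 0.35, adjusted p = 2.8e-06) and 8.7-fold lower late (-3.12 ± 0.25, adjusted p = 3.7e-13). Without the day 0 sample of Sox2 shRNA the early Trh difference was -2.42 (adjusted p = 0.073), and without that of the empty vector it was -1.81 (adjusted p = 0.32).

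Cdkn1c, an imprinted gene that encodes the Cdk inhibitor p57, and Tagln, which encodes the actin-binding protein transgelin, climbed over the first days. Cdkn1c had signals of 947, 2316, 4574, 8648, 11305, 13930, 12456 and 10872 on days 0 to 7 in Sox2 shRNA cells, against 182, 393, 450, 745, 611, 553, 333 and 415 in empty vector cells. Tagln had 501, 1345, 8837, 11291, 12665, 14408, 10564 and 12319 in Sox2 shRNA cells, against 290, 262, 509, 734, 699, 760, 792 and 579 in empty vector cells. Cdkn1c did not overlap between the courses, while the Tagln signal of Sox2 shRNA cells on day 0 lay within the range of the empty vector samples. Cdkn1c was 4.76-fold higher early (2.25 ± 0.27, adjusted p = 1.7e-07) and 23.0-fold higher late (4.52 ± 0.20, adjusted p = 1.5e-21). Tagln did not pass early (1.47 ± 0.48, adjusted p = 0.092) and was 16.0-fold higher late (4.0 ± 0.35, adjusted p = 3e-12).

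**Figure D1:**
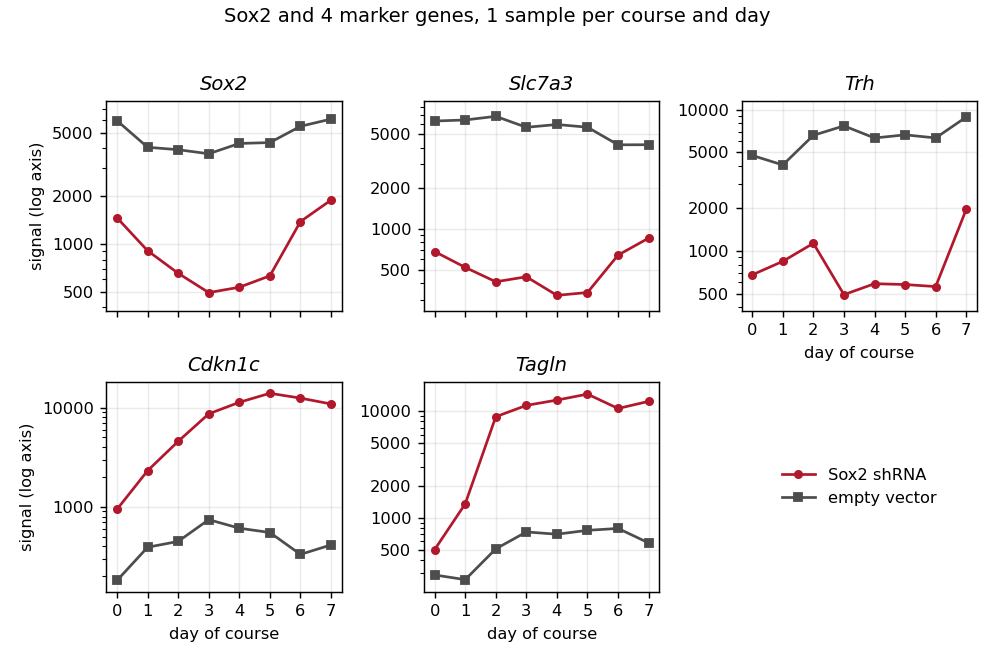
Signals of Sox2, Slc7a3, Trh, Cdkn1c and Tagln (y axis, MAS5 signal, log axis) by day of the course (x axis, days 0 to 7), with red circles for Sox2 shRNA and grey squares for empty vector, 1 sample per point. Sox2, Slc7a3 and Trh were below the empty vector on all 8 days, Cdkn1c was above it on all 8, and Tagln separated widely from day 2.

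More genes differed by at least 2-fold between the samples of a day on days 3 to 7 than on days 0 to 2, save for the lower genes on day 3. The number peaked on day 6 in both directions and fell back on day 7. On days 0, 1 and 2, 491, 657 and 759 of 14751 genes were at least 2-fold higher in Sox2 shRNA cells (3.33%, 4.45% and 5.15%) and 437, 591 and 616 were lower (2.96%, 4.01% and 4.18%). On days 3, 4 and 5 it was 1299, 1046 and 1093 higher (8.81%, 7.09% and 7.41%) and 576, 888 and 831 lower (3.9%, 6.02% and 5.63%). On days 6 and 7 it was 1547 and 860 higher (10.5% and 5.83%) and 1141 and 1006 lower (7.74% and 6.82%). These counts compare single samples, with no test. Neighbouring days of the empty vector course differed from each other by at least 2-fold in 804 to 1497 genes, and neighbouring days of the Sox2 shRNA course in 747 to 1495, so the 928 and 1248 genes of days 0 and 1 lie within the range that 1 day makes within a course. The 1375 genes of day 2 also lie within it, and the totals of days 3 to 7, 1866 to 2688, lie above it. The top of both ranges is the step from day 0 to day 1, which had similar counts in both courses. The largest other step was 1226 genes in the empty vector course and 1427 in the Sox2 shRNA course. The totals of days 1 and 2 lie above the former and below the latter. The median difference over all genes was between -0.063 and -0.001 on 6 of the days and was 0.134 on day 3 and -0.102 on day 7. After quantile normalization the day 3 counts were 1002 higher and 811 lower, and on days 6 and 7 the larger direction turned, with 1336 higher and 1349 lower on day 6 and 1024 higher and 863 lower on day 7.

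**Figure D2:**
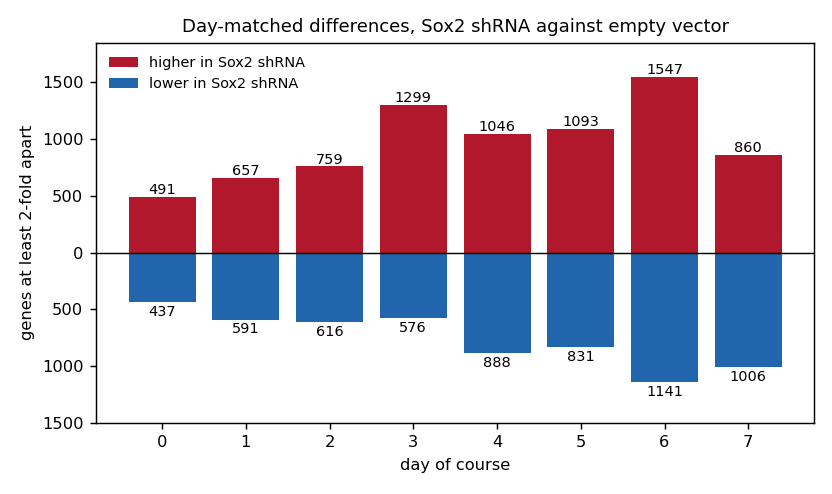
Genes at least 2-fold apart between the Sox2 shRNA and the empty vector sample of each day (x axis, day of the course; y axis, number of 14751 genes), with red bars upward for genes higher in Sox2 shRNA cells and blue bars downward for genes lower. The total was 928 on day 0 and 2688 on day 6.

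Tested against the spread around the curves, 494 genes passed early (3.35% of 14751), 260 higher and 234 lower. In the middle days 1961 passed (13.3%), 1150 higher and 811 lower. Late, 3829 passed (26%), 1833 higher (12.4%) and 1996 lower (13.5%), of which 637 were at least 2-fold higher (4.32%) and 378 at least 2-fold lower (2.56%). The early count rests on day 0: without that sample of Sox2 shRNA 85 genes passed (24 higher, 61 lower), and without that of the empty vector 53 (37 higher, 16 lower). The middle count was 1305 without the day 2 sample of Sox2 shRNA. The late count without any 1 sample was 2813 to 3828. Precision differs between the periods, so these counts do not show timing alone. The median standard error of the curve difference on a single day was 0.374 on days 0 and 7, and 0.233 to 0.281 on the days between. Taken day by day, 3248 genes passed on day 6 and 1122 on day 7.

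Among the genes with the largest early differences, several held the same distance from the empty vector throughout. Apobec2, a member of the cytidine deaminase family, had signals of 1620, 2112, 2758, 1707, 1788, 1613, 1953 and 2576 on days 0 to 7 in Sox2 shRNA cells, against 231, 360, 310, 353, 377, 291, 355 and 403 in empty vector cells. Dusp9, a phosphatase that inactivates ERK kinases, lay between 8520 and 12307 in Sox2 shRNA cells and between 1558 and 2434 in empty vector cells. Neither gene overlapped between the courses. Apobec2 was 5.73-fold higher early (2.52 ± 0.19, adjusted p = 2.9e-13) and 4.79-fold higher late (adjusted p = 4e-17), and Dusp9 was 5.15-fold higher early (2.36 ± 0.28, adjusted p = 1.4e-07) and 5.1-fold higher late (adjusted p = 2.8e-12). Another probe set of Apobec2 was at 0.28 late (adjusted p = 0.72). Without the day 0 sample of the empty vector the early Dusp9 difference was 2.12 (adjusted p = 0.052).

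The carbonic anhydrases Car4 and Car2, enzymes that hydrate carbon dioxide, were the other early rises of this size beside Krt18 and Igf2. Car4 had signals of 760, 1880, 3698, 4568, 4463, 4422, 2660 and 2720 in Sox2 shRNA cells, against 158, 91.9, 282, 373, 379, 395, 647 and 359 in empty vector cells. Car2 lay between 8328 and 14077 in Sox2 shRNA cells and between 830 and 3379 in empty vector cells, with its highest Sox2 shRNA value on day 1. Both were separate from the empty vector on all days. Car4 was 6.12-fold higher early (2.61 ± 0.35, adjusted p = 1.7e-06) and Car2 5.32-fold (2.41 ± 0.31, adjusted p = 5.5e-07).

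Hmces, whose protein binds abasic sites in single-stranded DNA, was the second largest early fall after Slc7a3. Its signals were 498, 729, 605, 796, 771, 902, 599 and 929 in Sox2 shRNA cells, against 5644, 4822, 4326, 4156, 3748, 3878, 3943 and 5397 in empty vector cells, with no overlap. It was 8.33-fold lower early (-3.06 ± 0.23, adjusted p = 5.6e-13) and 5.02-fold lower late (adjusted p = 1.5e-14). Manba, the lysosomal beta-mannosidase, lay between 256 and 701 in Sox2 shRNA cells and between 2586 and 4207 in empty vector cells, and was 7.15-fold lower early (-2.84 ± 0.20, adjusted p = 7.8e-14). Spink1, a serine protease inhibitor, had signals of 80.2, 44.7, 119, 135, 93.9, 197, 282 and 551 in Sox2 shRNA cells, against 736, 1030, 2138, 2102, 814, 1467, 628 and 528 in empty vector cells. It was thus far below the empty vector on days 0 to 5 and level with it on day 7, and was 7.37-fold lower early (-2.88 ± 0.39, adjusted p = 1.6e-06), a call lost without the day 0 sample of the empty vector (-2.6, adjusted p = 0.094). Gfod1 was lost in the same way, at -3.09 without that sample (adjusted p = 0.056) and -2.85 ± 0.42 with it (adjusted p = 8.3e-06).

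The day of onset was read for the 637 genes higher and the 378 genes lower by at least 2-fold late, as the first day on which the day-matched difference was at least 2-fold in that direction on that day and the next. Day 7, which has no next day, needed 2-fold on that day alone. An onset on day 0 means a difference present by the first sort, not one at transduction. Of the higher genes, 72, 109, 110 and 110 had their onset on days 0 to 3 and 48, 115, 25 and 16 on days 4 to 7, so 63.0% had it by day 3, while 32 had no such day. Of the lower genes, 69, 35, 31 and 51 had it on days 0 to 3 and 60, 51, 51 and 15 on days 4 to 7, or 49.2% by day 3, and 15 had none. These genes were chosen by their late difference, so their late values are a description. The median difference of the higher genes was 0.327 on day 0, 0.929 on day 2, 1.406 on day 3 and 1.573 on day 5. For the lower genes the median size of the fall was 0.562 on day 0, 0.819 on day 2, 1.052 on day 3 and 1.499 on day 6. Where the difference had to hold on every later day too, 37.4% of the higher and 21.7% of the lower genes had their onset by day 3. After quantile normalization the shares by day 3 lay closer together, at 59.7% of the higher and 52.4% of the lower genes.

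**Figure D3:**
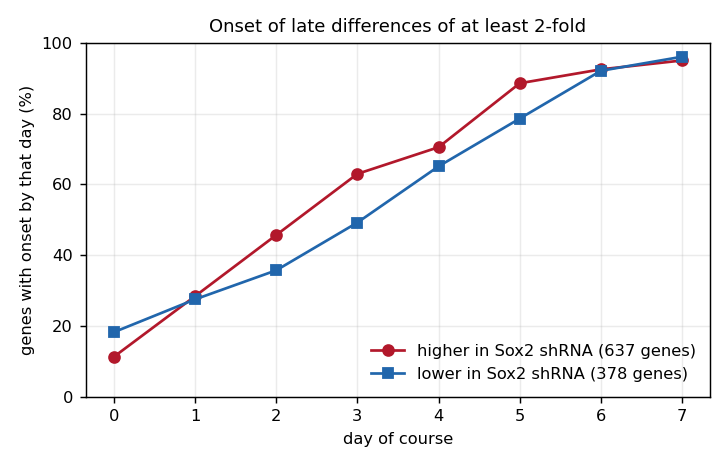
Cumulative share of the 637 higher genes (red circles) and 378 lower genes (blue squares) whose difference had reached 2-fold by each day (x axis, day of the course; y axis, percent of the genes). By day 3 the share was 63.0% for the higher and 49.2% for the lower genes.

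Genes with onset on day 1 were led by Rhox6, an X-linked homeobox gene active in the placenta, and Sct, which encodes the hormone secretin. Rhox6 had signals of 1066, 1518, 3686, 8670, 12488, 16994, 10121 and 12654 in Sox2 shRNA cells, against 533, 335, 416, 270, 384, 292, 354 and 560 in empty vector cells, with no overlap, and its late difference was the largest rise by the naming rule (4.89 ± 0.19, 29.6-fold, adjusted p = 2.2e-23). Sct had 138, 456, 1068, 3351, 4998, 8020, 3956 and 5558 in Sox2 shRNA cells, against 69.7, 95, 69.3, 84.7, 87.7, 75.9, 214 and 194 in empty vector cells. Its day 0 signal lay among the empty vector values and all later ones above them (late 4.81 ± 0.27, 28.1-fold, adjusted p = 5e-18). The lower genes with onset on day 1 were led by Tdrd12, a Tudor-domain gene of the piRNA pathway, with 934, 440, 242, 220, 170, 214, 308 and 352 in Sox2 shRNA cells, against 1331, 1031, 838, 1091, 1332, 1297, 1322 and 1326 in empty vector cells (late -2.27 ± 0.12, adjusted p = 8e-19). Its day 0 value lay within the range of the empty vector and all later ones below it.

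Later onsets were led by other genes. App, the amyloid precursor protein gene, had its onset on day 2, with signals of 95.9, 172, 334, 915, 2032, 2534, 2502 and 1924 in Sox2 shRNA cells, against 39.6, 60.1, 32.3, 44.9, 42.5, 43.7, 138 and 73.6 in empty vector cells. Only its day 0 value lay within the range of the empty vector (late 4.09 ± 0.24, 17.1-fold, adjusted p = 1.1e-17), and another probe set of App gave a smaller late difference of 2.41. Serpinb9g, of a serine protease inhibitor family, had its onset on day 4, with 112, 61.7, 129, 170, 366, 879, 1069 and 639 in Sox2 shRNA cells, against 134, 112, 55.5, 144, 82, 155, 89.5 and 130 in empty vector cells. The courses overlapped on days 0 to 2 and were apart from day 3, and the late difference was 2.08 ± 0.27 (4.24-fold, adjusted p = 4.1e-08). Itgb7, the integrin beta-7 subunit, had its onset as a fall on day 4, with 624, 346, 181, 289, 97.9, 65.2, 110 and 79.4 in Sox2 shRNA cells, against 725, 602, 627, 307, 950, 634, 881 and 1132 in empty vector cells. Its Sox2 shRNA values of days 0 and 1 lay within the range of the empty vector and all later ones below it, and the late difference was -2.50 ± 0.31 (5.65-fold, adjusted p = 1.9e-08).

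Sequences of promoters that hold a composite element show what the Sox and octamer sites look like side by side. In RefSeq promoters of build GRCm38.p6 (250 bases before to 50 after a start site), the motif ATTGT, any base, ATGCAAA was searched on both strands, and 8 of 32851 promoters (0.0244%) held it. The Sox part alone (ATTGT) was in 31% of the promoters and the octamer part alone (ATGCAAA) in 4.63%, and both shares include the promoters with the composite. Of the genes with the composite, 4 were measured, and each element is printed 5′ to 3′ on the strand that reads Sox site first, with the element in capitals.
Nanog, chr6:122707414-122707426, minus strand: ccatggacATTGTAATGCAAAagaagctg
Pipox, chr11:77894054-77894066, plus strand: gctcaattATTGTCATGCAAAtggcgcct
Nrarp, chr2:25180703-25180715, plus strand: gagcgtctATTGTTATGCAAAtataagaa
Exoc1, chr5:76529063-76529075, plus strand: ttatcaATTGTAATGCAAAtatctgat
The elements lie 62 and 138 bases before the 2 start sites of Nanog, and 42 bases before that of Nrarp and 181 before that of Pipox. Late, Nanog (-0.80 ± 0.14, adjusted p = 2e-05), Pipox, a sarcosine oxidase (-1.08 ± 0.14, adjusted p = 4.83e-08), and Nrarp, an inhibitor of Notch signalling (-0.57 ± 0.17, adjusted p = 0.00768), were lower in Sox2 shRNA cells, while Exoc1, a subunit of the exocyst, was at 0.01 ± 0.15 (adjusted p = 0.988). Pipox and Nrarp did not pass early. A match in these letters is no measured binding site. Among the genes known for composite elements, 7 of 9 had a promoter in the table, 1 of them, Nanog, with the composite, and among the 10 genes with the largest late falls, 8 had one and 0 held the composite. The search covered only this window, these letters and this spacing, so it cannot show that a gene lacks an element.

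Genes known for Oct-Sox elements passed mostly in the middle and late days, and each fell by less than Sox2 itself. Of 8 measured, 2 were lower early, 7 in the middle days and 7 late, and 0 were higher in any of these periods. Against this, 1.59% of all genes were lower early, 5.5% in the middle days and 13.5% late. The 2 early genes were Sox2, the target, and Zscan10 (-0.58). The median late difference was -0.988, beside -0.049 for all genes tested.

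Fgf4, a growth factor that ES cells secrete, had signals of 3660, 2932, 1500, 1271, 1270, 1810, 2098 and 2201 in Sox2 shRNA cells, against 5198, 5039, 3894, 4257, 5976, 4168, 4720 and 5979 in empty vector cells. Pou5f1, the gene of Oct4, had 12990, 12117, 10608, 8098, 8115, 8060, 8818 and 12126 in Sox2 shRNA cells, against 17380, 15118, 14741, 16028, 14626, 16248, 17590 and 15526 in empty vector cells. Nanog, a homeobox factor of self-renewal, had 5672, 4744, 4442, 3700, 3350, 3349, 4533 and 4214 in Sox2 shRNA cells, against 8314, 7080, 7221, 7181, 6635, 6752, 6576 and 6806 in empty vector cells. All 3 lay below the empty vector on every day with no overlap, with their lowest signal on day 4 or day 5, and none of them passed early. Late, Fgf4 was 2.72-fold lower (-1.44 ± 0.23, adjusted p = 3.6e-06), Pou5f1 1.78-fold (-0.83 ± 0.15, adjusted p = 2.2e-05) and Nanog 1.74-fold (adjusted p = 2e-05). Utf1 (late -1.0, and -1.34 and -0.18 by other probe sets), Fbxo15 (-0.98) and Zscan10 (-1.24) also passed late.

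Lefty1, an inhibitor of Nodal signalling, was the element gene that did not pass. It had 7015, 7510, 6963, 4135, 4636, 2996, 2630 and 5508 in Sox2 shRNA cells, against 2468, 4895, 5964, 7655, 5562, 5844, 6129 and 6093 in empty vector cells. It was above the empty vector on days 0 to 2 and below it on days 3 to 7, at 1.08 early (adjusted p = 0.26) and -0.72 late (adjusted p = 0.11).

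Of 33 measured pluripotency genes, 13 were lower early, 22 in the middle days and 27 late, beside 1.59%, 5.5% and 13.5% of all genes, and 0 were higher in any of these periods. The median difference was -0.566 early and -0.871 late, beside -0.017 and -0.049 for all genes. The list shares 6 genes, Sox2 among them, with the Oct-Sox element list. The early falls included Klf2, Klf4 and Zfp42, a pair of Krüppel-like factors and the zinc finger gene Rex1. Klf2 had signals of 2184, 2114, 2108, 2270, 3178, 1544, 1409 and 2273 in Sox2 shRNA cells, against 5554, 6045, 6571, 7757, 7630, 7218, 9389 and 9904 in empty vector cells. Klf4 had 642, 519, 654, 711, 406, 910, 1606 and 1171 in Sox2 shRNA cells, against 2063, 2125, 2358, 2078, 2574, 2467, 1841 and 1896 in empty vector cells. Neither overlapped, and the day-matched difference of Klf2 was widest on day 6 (-2.68), the day on which that of Klf4 was narrowest (-0.19). Klf2 was 2.66-fold lower early (adjusted p = 0.0004) and 4.31-fold lower late (adjusted p = 7.8e-12), and Klf4 3.24-fold lower early (adjusted p = 6.8e-06) and 2.12-fold lower late (adjusted p = 7.3e-06).

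Phc1, a Polycomb subunit that ES cells express, shows the slower form, with 8355, 6098, 4128, 3398, 2848, 2738, 4445 and 4857 in Sox2 shRNA cells, against 9877, 9271, 8764, 9072, 8875, 8296, 9618 and 8986 in empty vector cells. Only its day 0 value reached into the empty vector range, and it did not pass early (adjusted p = 0.31) but was 2.45-fold lower late (-1.29 ± 0.14, adjusted p = 4.3e-10). Tbx3 (late 0.28, adjusted p = 0.45) and Tfcp2l1 (0.16, adjusted p = 0.66) did not pass. Of the 6 markers that define ES cells, Pou5f1, Nanog, Zfp42, Fgf4, Eras and Dppa5a, all 6 were lower late, beside 13.5% of all genes. All 6 are also on the pluripotency or the Oct-Sox element list, so this is no separate result. Their summed signal was 45475 to 72454 in Sox2 shRNA cells and 75004 to 89936 in empty vector cells.

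**Figure D4:**
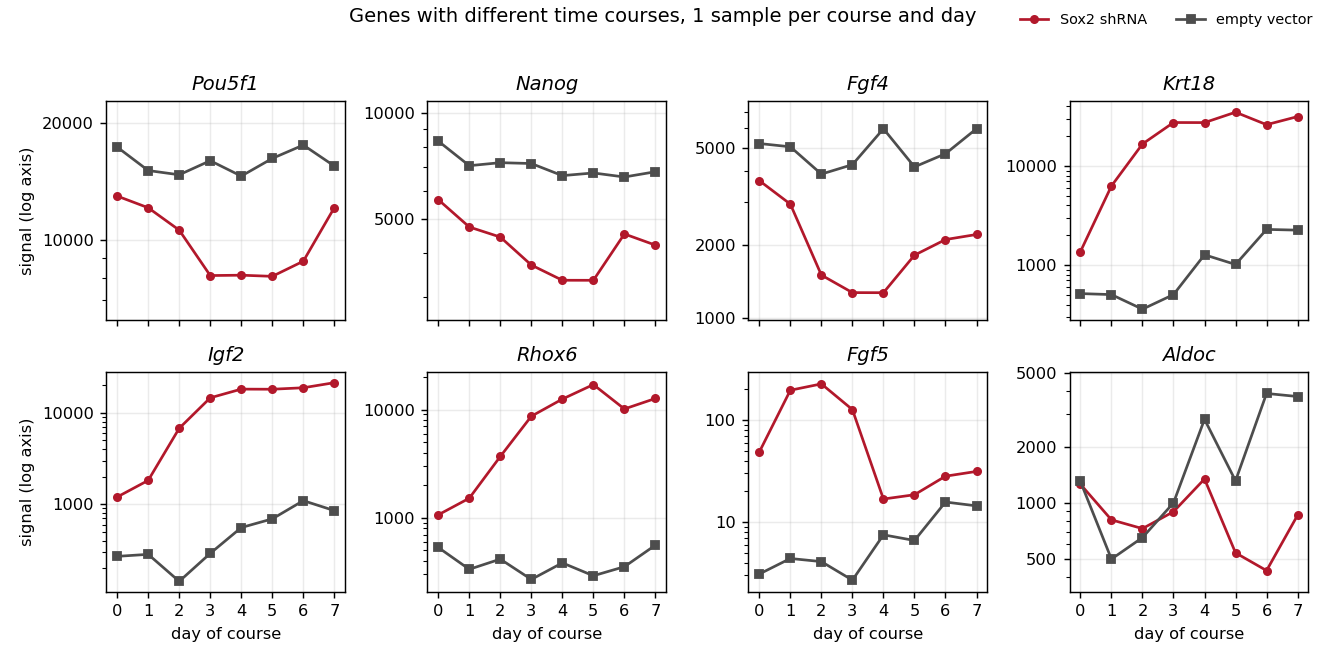
Signals (y axis, MAS5 signal, log axis) by day (x axis, days 0 to 7) of 8 genes with different time courses, with red circles for Sox2 shRNA and grey squares for empty vector, 1 sample per point. Pou5f1, Nanog and Fgf4 had their lowest signal in Sox2 shRNA cells on day 4 or day 5. Krt18, Igf2 and Rhox6 climbed to day 3 or later, Fgf5 was high on days 0 to 3 only, and Aldoc separated from day 4.

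Trophectoderm genes rose within the first 3 days. Of 30 measured, 10 were higher and 1 was lower early, where 1.76% and 1.59% of all genes were. In the middle days 27 were higher and 0 lower, beside 7.8% and 5.5% of all genes, and late again 27 were higher and 0 lower. The median day-matched difference was 0.571 on day 0, 0.794 on day 1, 1.488 on day 2 and 1.599 on day 3, and stayed between 1.359 and 1.768 from day 4 to day 7.

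Keratins 8 and 18, the intermediate filaments of simple epithelia, rose together. Krt18 had signals of 1367, 6295, 16716, 27526, 27479, 34984, 26180 and 31602 on days 0 to 7 in Sox2 shRNA cells, against 516, 504, 359, 504, 1272, 1015, 2294 and 2255 in empty vector cells. Krt8 had 653, 3805, 12566, 18296, 20128, 19941, 18218 and 22100 in Sox2 shRNA cells, against 590, 685, 442, 594, 1013, 1285, 2389 and 1410 in empty vector cells. On the same day the Sox2 shRNA sample was higher on 8 of 8 days for both, though their day 0 signals lay within the range of the later empty vector samples, which were themselves higher on days 4 to 7 than on days 0 to 3. The day-matched difference of Krt18 was 1.3 on day 0 and 5.6 on day 3. Krt18 was 5.39-fold higher early (2.43 ± 0.29, adjusted p = 1.4e-07) and 18.4-fold higher late (4.20 ± 0.21, adjusted p = 1.1e-19), and Krt8 13.2-fold higher late (3.72 ± 0.26, adjusted p = 5.8e-15). Fitted without a curve, the early Krt18 difference was 2.4 (adjusted p = 0.097). Krt7 (16.1-fold) and Krt19 (23.1-fold) also passed late.

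Gata3, Gata2 and Cdx2, transcription factors of this lineage, were also higher late, with their onsets on days 2, 3 and 1. Gata3 had 58, 46, 196, 198, 177, 282, 227 and 202 in Sox2 shRNA cells, against 16.5, 14.9, 20, 22.4, 26.6, 30.8, 11 and 24.7 in empty vector cells, a dim signal with no overlap (late 1.75 ± 0.28, 3.36-fold, adjusted p = 3.5e-06). Gata2 had 736, 830, 1013, 1438, 1410, 1567, 1401 and 1342 in Sox2 shRNA cells, against 477, 458, 560, 435, 448, 633, 391 and 408 in empty vector cells, also without overlap (late 1.52 ± 0.15, 2.87-fold, adjusted p = 3.9e-11). Cdx2 had 37.5, 144, 478, 473, 445, 366, 426 and 288 in Sox2 shRNA cells, against 84, 25.4, 67.8, 152, 30.8, 160, 175 and 45.5 in empty vector cells, apart from day 2 on. It was 2.65-fold higher late (1.40 ± 0.36, adjusted p = 0.0026), but another probe set of Cdx2 was at 0.08 (adjusted p = 0.85). Eomes (0.34, adjusted p = 0.14) and Tfap2a (0.07, adjusted p = 0.85) did not pass late. Msx2 was at 0.11 (adjusted p = 0.82) by the probe set used for it and 2.28 higher by another (adjusted p = 1.8e-08).

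Lgals3, which encodes galectin-3, was the list's only early fall and turned round within the course. Its signals were 337, 813, 1758, 4409, 5662, 6324, 4406 and 5770 in Sox2 shRNA cells, against 1088, 1649, 1530, 1475, 1192, 1282, 1398 and 1739 in empty vector cells. It was below the empty vector on days 0 and 1 and above it from day 2, at -1.20 ± 0.20 early (adjusted p = 6.7e-05) and 1.94 ± 0.15 late (adjusted p = 2.8e-14).

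Imprinted genes passed only upward: of 22 measured, 6 were higher early, 11 in the middle days and 13 late, beside 1.76%, 7.8% and 12.4% of all genes, with 0 lower in each period. The list shares Cdkn1c, Peg10, Phlda2 and Ascl2 with the trophectoderm list. Igf2, a fetal growth factor, had signals of 1201, 1824, 6762, 14548, 18105, 18052, 18734 and 21291 in Sox2 shRNA cells, against 270, 284, 144, 291, 557, 693, 1096 and 853 in empty vector cells, with no overlap. It was 23.1-fold higher late (4.53 ± 0.26, adjusted p = 1.4e-17), where another probe set gave 2.66. Its early rise (2.42, adjusted p = 1.1e-05) was not called without the day 0 sample of Sox2 shRNA (1.37, adjusted p = 0.62) or of the empty vector (1.94, adjusted p = 0.31). Peg3, a zinc finger gene, had 1316, 954, 1824, 2818, 2739, 3875, 5481 and 3041 in Sox2 shRNA cells, against 685, 283, 299, 233, 471, 344, 338 and 371 in empty vector cells (late 3.17, 8.98-fold, adjusted p = 3.7e-13). Grb10 (late 0.09, adjusted p = 0.76) and Impact (-0.02, adjusted p = 0.97) did not pass. Meg3, an imprinted noncoding RNA, gave no single answer: the probe set used for it was at 0.03 (adjusted p = 0.93), while 4 others were higher late, by 0.56 (adjusted p = 0.036), 0.79 (adjusted p = 0.0032), 1.76 (adjusted p = 1.4e-06) and 2.33 (adjusted p = 2.3e-05), and a further 4, at -0.05 to 0.44, did not pass.

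Most genes of the contractile apparatus and actin cytoskeleton rose in the middle and late days. Of 28 measured, 4 were higher and 2 lower early (1.76% and 1.59% of all genes), 19 higher and 1 lower in the middle days (7.8% and 5.5%), and 24 higher and 1 lower late (12.4% and 13.5%). The late median was 1.505 and the day 0 median 0.189. Acta1, skeletal muscle actin, had signals of 204, 1257, 6909, 10649, 10080, 10482, 7624 and 8468 in Sox2 shRNA cells, against 71.5, 53.7, 72.7, 253, 266, 473, 372 and 169 in empty vector cells. Its day 0 value lay in the range of the empty vector and all later values above it (late 4.59 ± 0.33, 24.1-fold, adjusted p = 1e-14). Cald1, caldesmon, had 1718, 1539, 2704, 3416, 3819, 5348, 6052 and 3797 in Sox2 shRNA cells, against 1147, 313, 278, 318, 372, 478, 292 and 270 in empty vector cells, with no overlap (late 3.54 ± 0.27, 11.6-fold, adjusted p = 3.5e-14). Acta2, smooth muscle actin, was 7.39-fold higher late (2.89 ± 0.25, adjusted p = 1.2e-12), while another probe set of it was at 0.04 (adjusted p = 0.96). Flna (-0.02, adjusted p = 0.97) and Srf (-0.10, adjusted p = 0.67) did not pass, and Csrp2 was the late fall (-0.61, adjusted p = 0.0011).

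Markers of fibroblasts, which share contractile genes, were measured beside them. Of 16 measured, 1 was higher and 0 lower early, and 5 were higher and 2 lower late, where 12.4% of all genes were higher and 13.5% lower, with a late median of 0.307. Their summed signal was 4107 to 7430 in Sox2 shRNA cells and 3313 to 4888 in empty vector cells, ranges that overlap. Pdgfrb (1.34, adjusted p = 0.00011), Col1a2 (1.05, adjusted p = 0.00079) and Col5a2 (1.02, adjusted p = 0.00016, but -0.05 by another probe set) were higher late, Thy1 (-1.18, adjusted p = 3.1e-07) and Mmp2 (-0.80, adjusted p = 0.0044) were lower, and Dcn (0.08, adjusted p = 0.94), Lox (-0.09, adjusted p = 0.91) and Postn (0.10, adjusted p = 0.78) did not pass. Their part in the contractile result was not tested.

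Of 14 measured annexin, S100 and galectin genes, which bind calcium, membranes or sugars, 9 were higher and 1 lower late, beside 12.4% and 13.5% of all genes, with a median of 1.084. Anxa1 had signals of 348, 596, 1471, 3801, 4067, 4791, 6575 and 3797 in Sox2 shRNA cells, against 258, 266, 279, 177, 177, 318, 252 and 297 in empty vector cells, with no overlap (late 3.95 ± 0.33, 15.4-fold, adjusted p = 6.6e-13). Anxa7 was the fall (-0.46, adjusted p = 0.0031), at -0.20 by another probe set (adjusted p = 0.44). Anxa6 (-0.10, adjusted p = 0.77) and S100a10 (0.05, adjusted p = 0.91) did not pass.

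**Figure D5:**
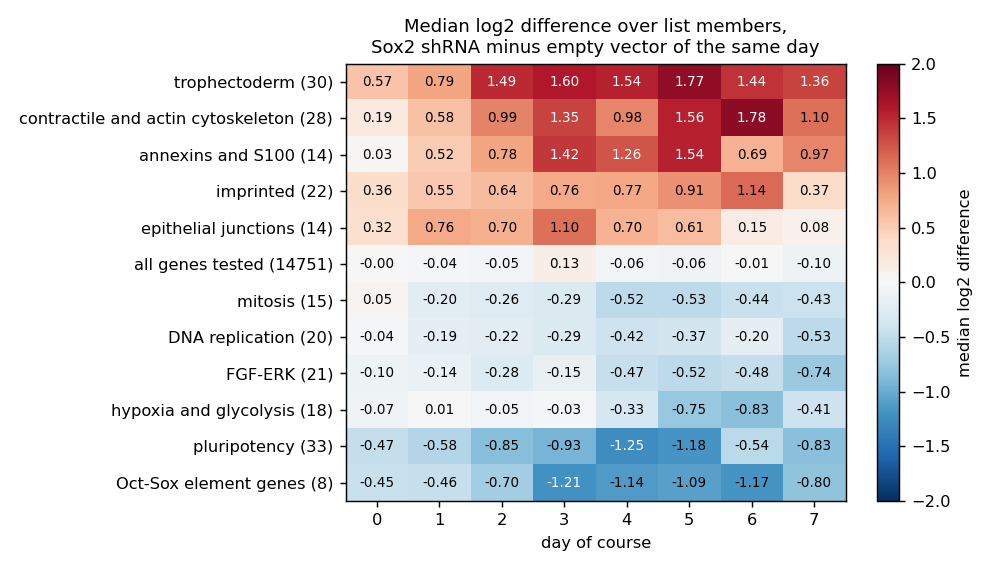
Median day-matched log2 difference, Sox2 shRNA minus empty vector, over the measured members of 11 gene lists and over all genes tested (rows, number of genes in brackets) on days 0 to 7 (columns). Red is higher in Sox2 shRNA cells and blue is lower, and the trophectoderm median was 0.571 on day 0 and 1.768 on day 5, while the pluripotency median was -0.471 on day 0 and -1.247 on day 4.

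Epithelial junction genes had a median difference of 0.322 on day 0, 1.096 on day 3 and 0.082 on day 7, and of 14 measured 3 were higher early, 8 in the middle days and 7 late, with 0 lower, beside 1.76%, 7.8% and 12.4% of all genes higher. Cldn6, a claudin of early epithelia, had signals of 1108, 1510, 1644, 2368, 2191, 1263, 1142 and 1190 in Sox2 shRNA cells, against 498, 557, 504, 813, 1235, 770, 1521 and 1255 in empty vector cells. It was above the empty vector on days 0 to 5 and below it on days 6 and 7 (early 1.22 ± 0.29, adjusted p = 0.0082, and late 0.26 ± 0.21, adjusted p = 0.43). Cdh1, E-cadherin, was likewise higher early (0.55, adjusted p = 0.033) and not late (-0.11, adjusted p = 0.54).

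Among 13 measured genes of the primed epiblast, the state that follows the ES cell state in development, 3 were higher and 0 lower early (1.76% and 1.59% of all genes), while 1 was higher and 4 were lower late (12.4% and 13.5%). Fgf5, a growth factor that marks this state, had signals of 48.5, 195, 225, 126, 16.8, 18.5, 28.1 and 31.3 in Sox2 shRNA cells, against 3.1, 4.4, 4.1, 2.7, 7.5, 6.6, 15.7 and 14.4 in empty vector cells. The signal was dim in both, above the empty vector on all days, and highest on days 1 and 2. It was 4.64-fold higher early (2.22 ± 0.38, adjusted p = 9.6e-05), 2.86 higher on the log2 scale in the middle days (adjusted p = 3.6e-08) and 0.52 ± 0.28 late (adjusted p = 0.17). Pou3f1, the POU factor Oct6, had 812, 647, 925, 565, 399, 305, 507 and 465 in Sox2 shRNA cells, against 218, 169, 290, 281, 261, 180, 260 and 210 in empty vector cells, without overlap (early 1.63, adjusted p = 0.00072, and late 0.72, adjusted p = 0.016). Otx2 (-1.08, adjusted p = 0.00033), Foxd3 (-1.0, adjusted p = 0.00034), Lef1 (-0.97, adjusted p = 0.001) and Sfrp2 (-1.21, adjusted p = 4.6e-07) were lower late, though another probe set of Lef1 was at -0.51 (adjusted p = 0.10).

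Replication and mitosis genes fell late and by little. Of 20 replication genes, 1 was higher and 0 lower early and 1 higher and 12 lower late (median -0.414), where 12.4% of all genes were higher and 13.5% lower. Of 15 mitosis genes, 0 passed early and 10 were lower late, with 0 higher (median -0.431). Mcm2, a subunit of the replicative helicase, had signals of 7260, 6118, 5981, 5035, 4612, 3653, 3129 and 3969 in Sox2 shRNA cells, against 7617, 6844, 7676, 8095, 7180, 7454, 7083 and 6751 in empty vector cells. It overlapped the empty vector on day 0 and lay below it on all later days (late -0.92 ± 0.09, 1.89-fold, adjusted p = 3.1e-11). Another probe set of Mcm2 was at -0.22 (adjusted p = 0.67). Mki67 (0.13, adjusted p = 0.84), Top2a (-0.22, adjusted p = 0.52) and Tyms (-0.01, adjusted p = 0.98) did not pass.

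Of 18 measured glycolytic and hypoxia-responsive genes, 0 were higher and 1 lower early, and 0 were higher and 9 lower late, beside 12.4% and 13.5% of all genes (median -0.581). Aldoc, an aldolase, had signals of 1257, 809, 726, 895, 1341, 538, 432 and 857 in Sox2 shRNA cells, against 1301, 498, 650, 998, 2805, 1311, 3862 and 3718 in empty vector cells. Bnip3, a mitochondrial protein of the hypoxia response, had 3872, 1017, 934, 1733, 2501, 781, 1068 and 1330 in Sox2 shRNA cells, against 5953, 1626, 2002, 2737, 5347, 2986, 5758 and 6026 in empty vector cells. For Aldoc the empty vector values of days 6 and 7 were above all its earlier ones, and the late days of the courses overlapped, while for Bnip3 they did not. Aldoc was 3.55-fold lower late (-1.83 ± 0.39, adjusted p = 0.00029) and Bnip3 3.62-fold (-1.86 ± 0.43, adjusted p = 0.00089). Slc2a1 (-0.01, adjusted p = 0.97) and Vegfa (-0.10, adjusted p = 0.80) did not pass. Aldoa was at -0.18 (adjusted p = 0.33) by the probe set used for it, while 4 other probe sets were lower late, by -0.60 to -1.0 (adjusted p of 0.0043 to 0.0087).

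Among 21 genes of FGF-ERK signalling, Fgf4 among them, 1 was higher and 2 lower early and 3 were higher and 11 lower late (median -0.540), beside 12.4% and 13.5% of all genes. Etv4, an ETS factor that ERK signalling induces, had signals of 1682, 797, 412, 256, 210, 498, 508 and 909 in Sox2 shRNA cells, against 2267, 1953, 2208, 2595, 1816, 1817, 1608 and 1561 in empty vector cells. It was lowest on day 4 and below the same-day empty vector sample on all days (late -1.72 ± 0.27, 3.29-fold, adjusted p = 3.4e-06), while another probe set of it was at -0.33 (adjusted p = 0.63). The feedback inhibitors Spry2 (-1.13, adjusted p = 1.8e-07) and Spry4 (-1.27, adjusted p = 1e-05) also fell late. The 3 genes higher late were Fos (1.46), with its onset on day 3, and the receptor genes Fgfr1 (0.61, adjusted p = 0.0012) and Fgfr2 (0.84, adjusted p = 0.00013, and 0.57, adjusted p = 0.32, by another probe set). Of 15 genes of LIF signalling, through which LIF keeps mouse ES cells undifferentiated, 2 were lower early, Klf4 and Gbx2, and late 1 was higher and 6 were lower, again beside 12.4% and 13.5%. Stat3 (-0.04, adjusted p = 0.87) and Il6st (0.21, adjusted p = 0.28) did not pass. Of 15 transporters of amino acids and monocarboxylates, 2 were higher and 8 lower late, the higher share being near the 12.4% of all genes and the lower one above 13.5%. Slc1a4 (-1.29, adjusted p = 1.2e-06, and -1.74 and -0.21 by other probe sets) and Slc3a2 (-0.72, adjusted p = 2.1e-07) were among the falls beside Slc7a3, and Slc38a4, which is also imprinted, rose (1.34, adjusted p = 4.2e-11).

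The change between the early and the late days of Sox2 shRNA cells, beyond that of empty vector cells, passed in 403 genes (2.73%), 233 higher (1.58%) and 170 lower (1.15%). Without the day 0 sample of Sox2 shRNA 60 genes passed, 60 higher and 0 lower, without its day 1 sample 264, and without the day 0 sample of the empty vector 45, so the count rests on the first days. Fitted without a curve, 36 genes passed, 23 higher and 13 lower, and with only the 2 courses in the fit 210 passed. The largest rises were Sct (3.63 ± 0.46, adjusted p = 1.8e-06), Rhox6 (3.44 ± 0.32, adjusted p = 7.8e-10), Sbsn (3.26 ± 0.29, adjusted p = 1.1e-10) and App (3.25 ± 0.40, adjusted p = 1e-06), which passed without any 1 sample. Vgf (3.22, adjusted p = 0.002) and Anxa1 (3.22, adjusted p = 0.00044) did not pass without the day 0 sample of the empty vector. Their changes in that fit were no smaller, at 3.5 (adjusted p = 0.15) and 3.53 (adjusted p = 0.062). Of the falls, Cpn1, Ptger4, Kndc1, Coq8a, Calb2 and Itgb7, none passed without the day 0 sample of Sox2 shRNA. By list, 13 of 30 trophectoderm and 15 of 28 contractile genes rose beyond the empty vector, with 0 lower in either, against 3 of 33 pluripotency genes that fell and 0 that rose.

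Set directly against the Oct4 shRNA course over days 4 to 7, a comparison that does not use the empty vector, 1435 genes differed (9.73%), 910 higher (6.17%) and 525 lower (3.56%) in Sox2 shRNA cells. After quantile normalization the split was 766 higher and 686 lower, and without the day 6 sample of Sox2 shRNA 927 genes differed. Acta1 had late signals of 7624 to 10482 in Sox2 shRNA cells, against 816 to 944 in Oct4 shRNA cells (3.27 ± 0.33, 9.64-fold, adjusted p = 8.4e-10). Fstl1, a secreted follistatin-like protein, had 1437 to 2334 in Sox2 shRNA cells, against 169 to 236 in Oct4 shRNA cells (2.99 ± 0.24, 7.92-fold, adjusted p = 9.1e-13). Of the contractile list, 19 of 28 genes were higher than in Oct4 shRNA cells and 0 lower, and of the imprinted list 8 of 22 and 0.

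In the other direction, Myl3, a myosin light chain, had 121 to 206 in Sox2 shRNA cells, against 1608 to 2388 in Oct4 shRNA cells (-3.27 ± 0.32, 9.65-fold, adjusted p = 2.2e-10). Fabp5, a fatty acid binding protein, had 1616 to 2646 in Sox2 shRNA cells, against 9357 to 13435 in Oct4 shRNA cells (-2.30 ± 0.18, 4.94-fold, adjusted p = 3.6e-13). None of these 4 genes overlapped between the courses over days 4 to 7, but they were chosen for the size of this difference. Of 30 trophectoderm genes 5 were higher and 6 lower than in Oct4 shRNA cells, the lower ones including Cdx2 (-2.18, adjusted p = 2.6e-05) and Hand1 (-1.71, adjusted p = 1.5e-08). Krt18 (0.34, adjusted p = 0.39) and Rhox6 (-0.37, adjusted p = 0.26) did not pass. Of 33 pluripotency genes 9 were higher and 10 lower, among them Pou5f1, the target in the other course (1.45, adjusted p = 1.1e-09), and Sox2 (-1.44, adjusted p = 1.1e-09).

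Against the mean of the 6 other shRNA courses over days 4 to 6, 2552 genes differed (17.3%), 1277 higher (8.66%) and 1275 lower (8.64%), and 1562 without the day 5 sample of Sox2 shRNA. The genes highest in this contrast were of different kinds. Igfbp6, an IGF-binding protein, had a mean signal of 1958 in Sox2 shRNA cells and 220 to 514 in the other courses (2.31 ± 0.22, 4.94-fold, adjusted p = 7.6e-11). Apobec2 had 1785 in Sox2 shRNA cells and 272 to 593 in the others (2.11 ± 0.12, adjusted p = 1.1e-17). Both were thus above every other shRNA course. Tesc, the calcium-binding protein tescalcin, had 567 in Sox2 shRNA cells, against 25 to 94 in the other shRNA courses but a late mean of 326 in empty vector cells (2.54 ± 0.25, adjusted p = 3.1e-10).

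Rhox6 and Plac1, a gene of the placenta, were not highest in Sox2 shRNA cells alone. Rhox6 had 13201 in Sox2 shRNA cells, 12727 in Nanog shRNA cells and 17120 in Oct4 shRNA cells, and 910 to 2417 in the other 4 courses (2.35 ± 0.16, adjusted p = 1.2e-14). Plac1 had 4352 in Sox2 shRNA cells, 6732 in Nanog shRNA cells, 2073 in Oct4 shRNA cells and 302 to 560 in the other 4 (2.43 ± 0.19, adjusted p = 2.6e-13). Of the falls, Slc7a3 had 434 in Sox2 shRNA cells, against 854 in Oct4 shRNA cells, 1592 in Nanog shRNA cells and 3230 to 6035 in the other 4 (-2.55 ± 0.12, 5.87-fold, adjusted p = 1.1e-19). Trh had 575 in Sox2 shRNA cells, against 1386 in Oct4 shRNA cells, 3028 in Nanog shRNA cells and 4843 to 6984 in the other 4 (-2.69 ± 0.22, 6.47-fold, adjusted p = 1.5e-12). Tdrd12 had 231 in Sox2 shRNA cells and 460 to 1516 in the others (-2.13 ± 0.11, adjusted p = 1.4e-19). These 3 genes were lower in Sox2 shRNA cells than in each of the 6 courses.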

How the data were processed

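RNA of 70 samples in 9 courses was measured on 140 Affymetrix arrays. The deposited values were intensity signals on a linear scale, which the authors computed with MAS5 per the submitters' processing notes (version not given in the sources used here). On all arrays the 2% trimmed mean of 100 shared control probe sets was 2500, so the deposited arrays had been scaled on these. A Dppa4 course was not analysed here.

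Groups and days came from the labels. The 20th percentile of each table was added to its signals as pseudocount before log2 (63.3 for A, 21.9 for B). Of 45265 probe sets, 35041 named 1 gene, 936 several and 9160 none, and 128 were controls. Probe sets above the table median on at least 3 of the 70 arrays were used, and 1 probe set stood for each gene, that ranking highest by mean percentile, giving 14751 genes (7748 on A, 7003 on B). limma 3.58.1 in R 4.3.3 fitted a smooth curve of day per course (natural spline, 3 degrees of freedom) to all 70 samples, separately for A and B (lmFit, eBayes with an intensity trend). Benjamini-Hochberg adjustment ran over the p-values of both tables together (threshold 0.05). The fit was tested on simulated data with independent noise around its own curves. Such data cannot show a misfit of the curves, shared day effects or the spread between transductions. Day-matched counts and onset days carry no test. No pair of arrays was identical (highest correlation 0.984).

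The members, gene lists and rules were chosen with earlier results of these data known. Named genes were the 5 given markers, the 10 largest late rises and falls, the 6 largest each way in each other contrast, the 4 largest each way per onset day, and list members that passed late, with up to 3 others. Genes of the promoter search were named by their match. Some list genes that passed early but not late, or were named for their course, were chosen after their values were seen. Of 465 other probe sets of these genes, 152 gave a fold more than 1.5 times apart and 2 passed with the opposite sign. Alternatives tried were pseudocount, filter, normalization, probe sets, curve, variance trend, samples, days and leaving out each sample.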

Additional observations from a re-analysis of the deposited data

Results flagged for a closer look

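These results were singled out because a test of the difference between 2 courses, with the empty vector cancelling, passed. Between Sox2 shRNA and Oct4 shRNA cells over days 4 to 7, 1435 genes differed, and between Sox2 shRNA cells and the mean of the other 6 shRNA courses over days 4 to 6, 2552 did. The genes below are the largest each way, chosen by that difference, so their sizes are a description.

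Higher in Sox2 shRNA than in Oct4 shRNA cells, on the log2 scale, were Acta1 (3.27), Fstl1 (2.99), Mrc2 (2.66), Vgf (2.53), Tagln (2.44) and Gap43 (2.44). Mrc2, a collagen receptor, had late signals of 455 to 721 in Sox2 shRNA cells, against 14.1 to 113 in Oct4 shRNA cells. Against the empty vector, Mrc2, Cpm, Ak4 and Nadk2 each had another probe set that did not pass late where the one used did. Lower were Myl3 (-3.27), Cpm (-2.54), Pth1r (-2.43), Ak4 (-2.42), Fabp5 (-2.30) and Cidea (-2.22). Ak4, an adenylate kinase of mitochondria, had 715 to 1259 in Sox2 shRNA cells, against 5287 to 5891 in Oct4 shRNA cells.

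Higher in Sox2 shRNA cells than in the mean of the other 6 courses were Sct (2.93), Tesc (2.54), Tgm2 (2.48), Plac1 (2.43), Rhox6 (2.35) and Igfbp6 (2.31). Sct had a mean signal of 5658 in Sox2 shRNA cells over days 4 to 6, against 8266 in Nanog shRNA cells, 4550 in Oct4 shRNA cells and 170 to 556 in the other 4. Lower were Trh (-2.69), Slc7a3 (-2.55), Sox2 (-2.13), Tdrd12 (-2.13), Mapk4 (-2.0) and Nadk2 (-1.96).

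In 9 sets of 8 values (the array medians of each course on each array, and the day-matched differences of the 5 markers), none had a highest or lowest value standing far from the others.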

How the results depend on the processing

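Of 70 pairs of a named gene and a comparison, 56 kept their direction and their side of the threshold under every alternative, and over 1794 values 36 lost their call and 0 turned sign. The counts moved most. Without a curve, 194 genes passed early, 925 in the middle days, 36 in the change beyond the empty vector and 813 against Oct4 shRNA cells. That change passed in 210 genes with only the 2 courses in the fit and in 259 with a curve of 2 degrees of freedom. Leaving out 1 sample at a time gave 53 to 514 early genes, 1305 to 2002 in the middle days, 2813 to 3828 late, 45 to 500 beyond the empty vector, 927 to 1601 against Oct4 shRNA cells and 1562 to 2645 against the other 6. A pseudocount of 1 raised the genes past 2-fold to 1427 on day 0 and 1935 on day 1. Requiring a difference on every later day gave an onset by day 3 for 37.4% of the higher and 21.7% of the lower genes. The day is the number that samples of the courses share. Same-day residuals correlated at -0.02 to 0.127, over 0.1 on only some days, and the fit did not pair the samples by day. On days 0, 1 and 5 the same day gave the highest correlation. The curve of each course takes up smooth day effects, so these correlations cannot show that the days were unpaired. From day 0 to day 1, 334 genes were at least 2-fold higher and 1163 lower in the empty vector course, and 336 and 1159 in the Sox2 shRNA course. A fit with day as a replicate block, which also had no curve and only the 2 courses, called 234 genes early, 878 in the middle days, 74 beyond the empty vector and 3020 late (3102 late without a curve alone), so the part of the block was not separated from these. The cause of these moves was not tested, save that a fit with fewer samples has less to estimate the spread from. Dim genes such as Fgf5 and Gata3 are limited by signal over background, and no detection calls were used.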

Other observations

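The lists not yet described are given for the late days, where 12.4% of all genes were higher and 13.5% lower. Of 15 G1 cyclins and Cdk inhibitors, 6 were higher and 2 lower. Cdkn2b, the inhibitor p15, had signals of 476, 738, 725, 1020, 1042, 931, 854 and 769 on days 0 to 7 in Sox2 shRNA cells, against 43, 356, 370, 188, 121, 44.4, 173 and 62.9 in empty vector cells, with no overlap (late 2.64 ± 0.24, 6.23-fold, adjusted p = 4.1e-12). Mycn, a Myc family factor of ES cells, had 2937, 1724, 1940, 1260, 987, 1006, 1084 and 1728 in Sox2 shRNA cells, against 3761, 3273, 4133, 4186, 4062, 3696, 3708 and 4108 in empty vector cells, also with no overlap (late -1.68 ± 0.20, adjusted p = 8.2e-09). Other probe sets of Mycn were at -0.80 (adjusted p = 0.0002) and 0.36 (adjusted p = 0.57). Of 17 genes of the p53 response and apoptosis, 8 were higher late and 1 was lower. Between the early and late days, 6 of these 17 genes fell within the empty vector course and 0 rose, and within the Sox2 shRNA course 1 fell and 0 rose. Of all 14751 genes, 131 fell and 230 rose within the empty vector course, and 480 fell and 657 rose within the Sox2 shRNA course. Of 14 BMP genes, 5 were higher and 0 lower late. Id3, a target of BMP signalling, had 497, 1788, 2943, 3107, 2745, 3953, 2573 and 2568 in Sox2 shRNA cells, against 509, 475, 588, 610, 284, 674, 596 and 622 in empty vector cells, level on day 0 and apart from day 1 (late 2.28 ± 0.26, 4.87-fold, adjusted p = 1.8e-09).

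Of 16 Sox family genes, 3 were higher and 4 lower late, Sox2 among the lower. Sox3, the nearest relative of Sox2, had signals of 980, 929, 948, 507, 461, 580, 457 and 649 in Sox2 shRNA cells, against 427, 393, 409, 291, 360, 348, 364 and 258 in empty vector cells, with no overlap. It was 1.11 higher early (adjusted p = 0.032) and 0.60 higher late (adjusted p = 0.047), while another probe set was at -0.67 late (adjusted p = 0.11). Of the other lists, 3 of 9 secreted peptides were higher and 3 lower, 3 and 6 of 19 Nodal genes, 5 and 3 of 15 Wnt genes, and 3 and 4 of 16 retinoic acid genes. Of 23 extraembryonic endoderm genes 5 were higher and 2 lower, of 14 neural genes 3 and 3, of 11 mesoderm genes 2 and 2, of 12 interferon genes 1 and 1, of 7 germ line markers 1 and 2, and of 16 DNA methylation and Polycomb genes 0 and 4.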
